A study of Rattus norvegicus with 8 samples.

Results

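Mx1 and 8 other interferon-stimulated genes (Mx2, Irf1, Irf7, Irf9, Isg15, Stat2, Oas1a and Usp18) were followed in the hippocampus of 8 male Wistar rats, of 12206 genes that could be named on the array. Each of the 9 genes was taken with every non-control probe whose RefSeq accession maps to its symbol, which gave 10 probes, 2 of them for Usp18. The 4 CCH rats ate standard laboratory feed with 0.1% coral calcium hydride (CCH), coral calcium that carries hydride, mixed in, and the 4 control rats ate the feed alone. Feeding began at 6 weeks of age and tissue was taken at 8 weeks. Total hippocampal RNA was labelled with Cy3 and hybridised to 1-colour Agilent arrays, 1 rat per array. The free-text sample descriptions speak instead of a lesion model with drug injections, and they were set aside in favour of the sample titles and treatment labels.

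The 4 CCH arrays lay on 1 slide and the 4 control arrays on another, and each slide was scanned separately. Every difference between the diets is therefore also one between slides and between scans, and these cannot be told apart. The 75th percentile of the processed signal ran from 642 to 882 on the CCH arrays and from 563 to 700 on the control arrays. The share of spots well above background lay between 76.3% and 79.9%, and the number of arrays limits the precision. Levels are given as log2 signal relative to the 75th percentile of the same array, so that 0 is the level of that percentile and each unit is a doubling. Of the 7 neuronal markers listed, 6 were measured and well above background on every array, among them the excitatory-neuron gene Neurod6 between 2.28 and 2.70 and Camk2a between 2.06 and 2.75. Neuronal transcripts were thus present in every sample, and whether these markers tell hippocampus from other brain regions was not tested.

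Type I interferons act through a receptor whose kinases phosphorylate STAT proteins, STAT2 among them, and these join IRF9 in a complex that binds the interferon-stimulated response element. The induced genes include antiviral effectors such as the MX GTPases and the oligoadenylate synthetases, the ubiquitin-like modifier ISG15, and feedback proteins such as USP18. In the uninfected brain a low level of this programme is kept up by tonic interferon signalling, with microglia, endothelium and the brain's border tissues among the responding cells.

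Promoters of 6 of the 9 genes (Mx1, Irf1, Irf7, Irf9, Stat2 and Oas1a) were in the RefSeq table of assembly GRCr8, and Mx2, Isg15 and Usp18 were not matched. Each window ran from 250 bases before the annotated start to 50 bases after it. The core letters of the response element, GAAANNGAAA on either strand, were found in 2 of these 6 windows, those of Oas1a and Irf7, against 1312 of all 33469 promoters (3.92%). The gamma-activated site, TTCNNNGAA, reads the same on both strands and was found in 3 of the 6 (Irf1, Irf9 and Oas1a), against 2970 of 33469 (8.87%). Oas1a held both kinds, with 2 response-element matches that overlap each other and begin 41 and 35 bases before the start. The match in Irf7 began 69 bases before the start, and those to the gamma-activated site began 142 bases before it in Irf1 and 199 in Oas1a. Neither set of letters was in the Mx1 window or the Stat2 window. A search for exact letters in 300 bases at 1 annotated start cannot show that a gene lacks such a site. The windows of Oas1a, Irf7, Mx1 and Irf1 are shown, the last as the classical gene of the gamma-activated site. Oas1a, Irf7 and Mx1 differed in their patterns among rats, and a link of the letters with these patterns was not tested. Matches are in capitals. The windows lie at chr12:41330216-41330515 on the + strand for Oas1a, chr1:205799974-205800273 on the - strand for Irf7, chr10:38417685-38417984 on the + strand for Irf1 and chr11:50294557-50294856 on the - strand for Mx1.
Oas1a: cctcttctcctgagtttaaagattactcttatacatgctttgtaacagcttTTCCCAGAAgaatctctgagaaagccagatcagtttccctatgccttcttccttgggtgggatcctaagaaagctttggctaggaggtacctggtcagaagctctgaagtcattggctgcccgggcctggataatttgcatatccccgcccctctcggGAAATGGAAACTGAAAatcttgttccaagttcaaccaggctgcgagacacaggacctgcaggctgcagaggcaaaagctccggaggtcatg
Irf7: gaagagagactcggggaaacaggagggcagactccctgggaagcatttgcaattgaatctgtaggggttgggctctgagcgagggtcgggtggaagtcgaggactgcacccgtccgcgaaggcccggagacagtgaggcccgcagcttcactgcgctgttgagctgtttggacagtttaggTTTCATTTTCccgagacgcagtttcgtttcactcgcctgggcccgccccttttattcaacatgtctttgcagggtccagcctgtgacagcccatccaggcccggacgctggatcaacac
Irf1: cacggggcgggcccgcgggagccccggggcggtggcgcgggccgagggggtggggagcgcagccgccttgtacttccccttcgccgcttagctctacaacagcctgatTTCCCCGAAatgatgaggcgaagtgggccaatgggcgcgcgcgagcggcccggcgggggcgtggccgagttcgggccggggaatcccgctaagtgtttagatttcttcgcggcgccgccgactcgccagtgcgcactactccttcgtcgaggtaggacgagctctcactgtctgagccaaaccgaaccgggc
Mx1: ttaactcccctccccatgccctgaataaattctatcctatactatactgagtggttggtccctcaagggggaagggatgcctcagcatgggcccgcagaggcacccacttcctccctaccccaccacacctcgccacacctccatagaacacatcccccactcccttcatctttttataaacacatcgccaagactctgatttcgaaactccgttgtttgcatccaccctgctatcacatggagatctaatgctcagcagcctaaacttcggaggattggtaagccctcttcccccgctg

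The 9 genes were chosen with their differences between CCH and control known, so those differences are given as a description. The limma counts below only set them beside all tested probes and are no test of these genes. Mx1 was lower in every CCH rat than in any control rat, while the other 8 genes overlapped between the diets. All 10 probes were well above background on all 8 arrays and all 10 entered the fit over 31618 probes. By limma, 0 of the 10 had an adjusted p under 0.05, as did 0.174% of all tested probes, and 1 of the 10 (Mx1) had an unadjusted p under 0.05, as did 15.4% of all tested probes. By direction, adjusted calls covered 0.0759% of all tested probes higher in CCH and 0.098% lower, and an unadjusted p under 0.05 covered 8.79% higher and 6.59% lower. Over the brightest probe of each gene 5 genes were lower and 4 higher in CCH, with a median log2 difference of -0.03 beside 0.03 over all tested probes.

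Mx1 encodes an interferon-induced dynamin-like GTPase that blocks virus replication. Its level was -4.24, -3.34, -4.20 and -3.73 in CCH replicates 1 to 4, against -2.34, -2.80, -3.12 and -2.74 in control replicates 1 to 4. The highest CCH rat thus stayed below the lowest control rat. All CCH arrays lay below all control arrays in 4.7% of all tested probes, and groups did not overlap in either direction in 11.3%. The mean was -3.88 ± 0.43 in CCH and -2.75 ± 0.32 in control (SD, n = 4 each). That is a log2 difference of -1.13 ± 0.24 (SE), or a level 2.18-fold lower in CCH. A difference at least as low was measured for 176 of the 31618 probes (0.557%). The spread within a diet was narrower than this difference, at 1.86-fold between the extreme CCH rats and 1.72-fold between the extreme control rats. The Mx1 spot was dim, with a processed signal between 35.7 and 73.8 on the CCH arrays and between 68.5 and 138 on the control arrays. With normexp background correction, which adds an offset of 50 to every spot, the log2 difference was -0.68 ± 0.13 (SE). With 1 array left out in turn it ran from -1.30 to -0.99.

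Mx2, the second MX GTPase of the rat, is a neighbour of Mx1 on chromosome 11, with 1 protein-coding gene, Fam3b, annotated between them. Its level was -1.40, -1.43, -2.23 and -1.68 in CCH replicates 1 to 4, against -1.11, -1.63, -1.62 and -2.0 in control replicates 1 to 4. The diets overlapped throughout, and the log2 difference was -0.10 ± 0.23 (SE). The wide gap seen for Mx1 was therefore not measured for its paralogue, although the gap between Mx1 and Mx2 was not itself tested.

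**Figure D1:**
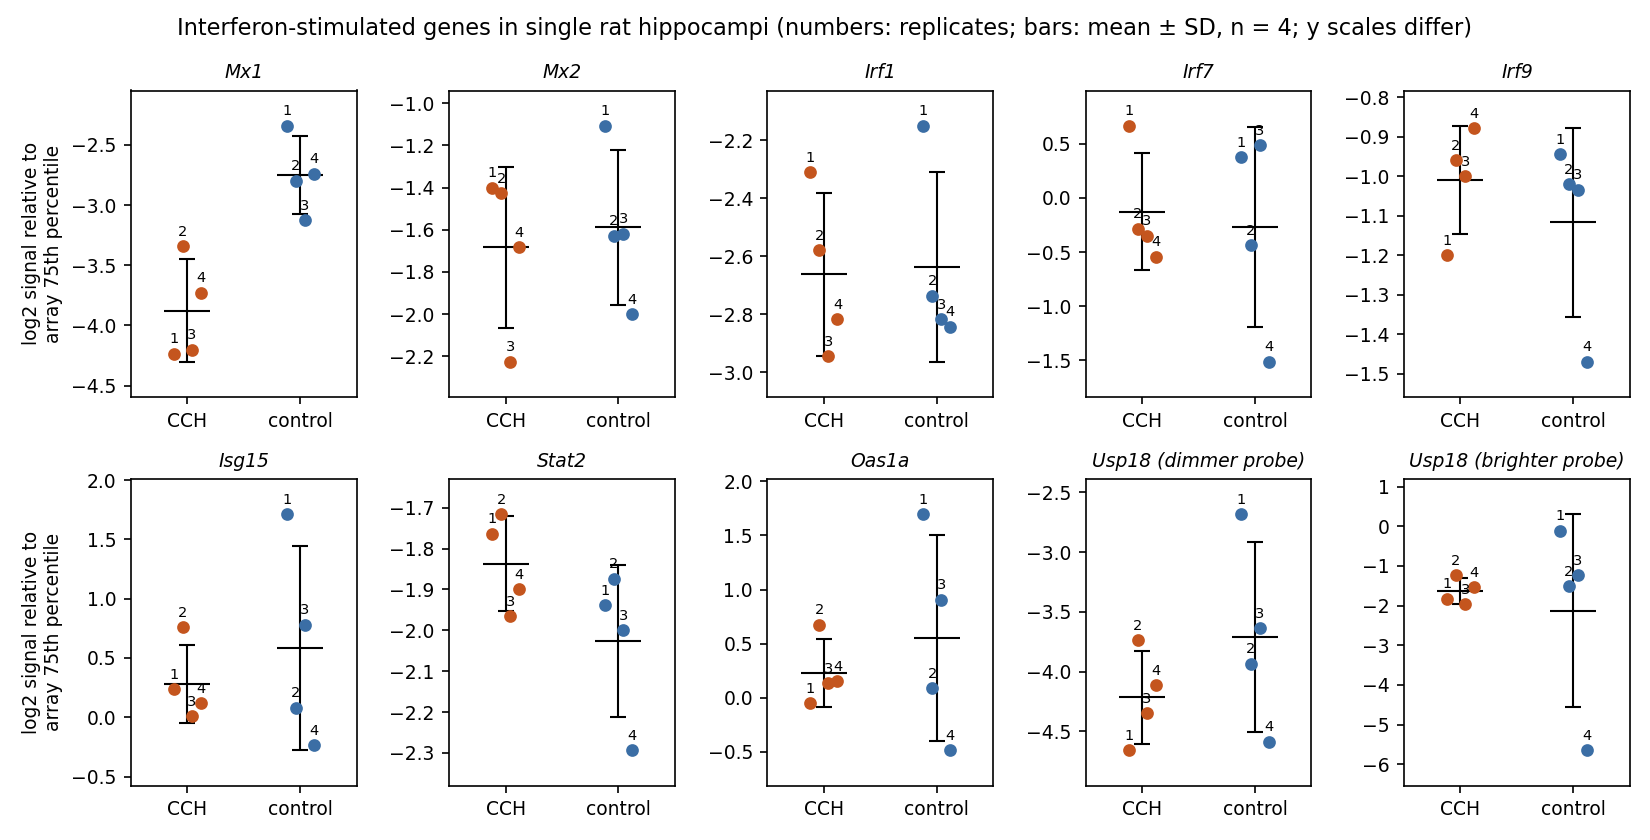
Log2 signal relative to the array's 75th percentile (y axis, a separate scale in each panel) for the 10 probes of the 9 genes, in CCH rats (left, orange) and control rats (right, blue). Each point is 1 rat with its replicate number, and bars are the mean ± SD of 4 rats. The 4 CCH rats lie below the 4 control rats for Mx1, and the diets overlap in the other 9 panels, where control replicate 1 is often at the top and control replicate 4 at the bottom.

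Among the transcription factors, Stat2, Irf9 and Irf1 overlapped between the diets. Stat2, the subunit that type I receptors phosphorylate, was at -1.76, -1.72, -1.97 and -1.90 in CCH replicates 1 to 4, against -1.94, -1.87, -2.0 and -2.29 in control replicates 1 to 4. Its log2 difference was 0.19 ± 0.12 (SE), and 0.02 with normexp background correction. Irf9, the DNA-binding partner of STAT2, ran from -1.20 to -0.88 in CCH and from -1.47 to -0.94 in control, with a difference of 0.11 ± 0.14 (SE). Irf1, a factor induced mainly by interferon gamma, ran from -2.95 to -2.31 in CCH and from -2.84 to -2.15 in control, with a difference of -0.03 ± 0.19 (SE). For each of these 3 factors the lowest control rat was replicate 4.

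Irf7, the factor that amplifies type I interferon production, was far more variable. It was at 0.66, -0.28, -0.35 and -0.54 in CCH replicates 1 to 4, against 0.38, -0.43, 0.48 and -1.51 in control replicates 1 to 4. The extreme control rats differed 3.99-fold and the extreme CCH rats 2.31-fold, so the difference between the diets of 0.14 ± 0.46 (SE) was smaller than the spread within either. It was -0.27 without control replicate 4 and -0.12 without CCH replicate 1.

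Isg15, the ubiquitin-like modifier, was at 0.24, 0.76, 0.01 and 0.12 in CCH replicates 1 to 4, against 1.71, 0.08, 0.78 and -0.24 in control replicates 1 to 4. Oas1a, an oligoadenylate synthetase that senses double-stranded RNA, was at -0.05, 0.67, 0.13 and 0.15 in CCH replicates 1 to 4, against 1.69, 0.09, 0.90 and -0.49 in control replicates 1 to 4. Both genes had the same order of control rats, with replicate 1 highest, then 3, 2 and 4, and both had replicate 2 as the highest CCH rat. The extreme control rats differed 3.85-fold for Isg15 and 4.53-fold for Oas1a, against 1.68-fold and 1.65-fold between the extreme CCH rats. The log2 differences between the diets were -0.30 ± 0.40 (SE) for Isg15 and -0.32 ± 0.43 (SE) for Oas1a. They depended on single rats. Without control replicate 1 they were 0.07 and 0.06, without control replicate 4 they were -0.58 and -0.67, and without CCH replicate 2 or control replicate 2 they lay between -0.48 and -0.46. Oas1a belongs to a family of close paralogues on chromosome 12, and cross-hybridisation between them was not tested.

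Usp18 encodes the protease that removes ISG15 from proteins and dampens receptor signalling. On its dimmer probe it was at -4.66, -3.74, -4.35 and -4.12 in CCH replicates 1 to 4, against -2.68, -3.93, -3.64 and -4.59 in control replicates 1 to 4. On its brighter probe it was at -1.83, -1.23, -1.96 and -1.53 in CCH replicates 1 to 4, against -0.11, -1.52, -1.23 and -5.65 in control replicates 1 to 4. Both probes put control replicate 1 at the top and control replicate 4 at the bottom of the controls, but only the brighter one dropped so far, to a processed signal of 11.6, and it set a 46.4-fold range among the control rats. The probes differed in sign between the diets, at -0.50 ± 0.38 (SE) on the dimmer and 0.49 ± 1.04 (SE) on the brighter. Without control replicate 4 the brighter probe was at -0.69, so its positive value rested on that array.

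The recurring order of the rats led to a second description that does not use the contrast between the diets. Each gene's mean in its diet was subtracted, and the remaining deviations of the 8 rats were compared. For Mx1 with each of the other 8 genes, Pearson's r ran from -0.22 (Irf7) to 0.50 (Isg15), with a median of 0.35, where Usp18 is read on its brighter probe (r = 0.211). On the dimmer Usp18 probe r was 0.614 and rho 0.571 (exact permutation p = 0.102 and 0.151, the same after adjustment over 4 relations), and r was -0.112 without 2 rats. None of the 8 relations had an adjusted p under 0.05 and none an unadjusted p under 0.05 (two-sided exact permutation over pairings). For Mx1 with Isg15, r was 0.497 and Spearman's rho 0.286 (exact permutation p = 0.211 and 0.501, adjusted 0.658 and 0.613 over 8 relations). Without the 2 rats farthest from the median of Mx1 this r was -0.583, so the positive value rested on them. Of all tested probes 9.57% had an r with Mx1 at least as high as that of Isg15.

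Among the other 8 genes all 28 pairs had a positive r, from 0.13 (Irf1 with Irf9) to 0.97 (Isg15 with Oas1a), with a median of 0.67. Without the 2 rats farthest from the median of the first gene of each pair, r ran from 0.0143 to 0.908 with a median of 0.476. Among the pairs that dropped were Isg15 with Usp18 (0.781 with all rats, 0.265 without 2), Oas1a with Usp18 (0.849 and 0.381), Stat2 with Usp18 (0.812 and 0.231) and Stat2 with Oas1a (0.557 and 0.0143). The whole set of 36 pairs was computed after the values were seen. The relation of Isg15 with Oas1a had an r of 0.973 and a rho of 0.929 (exact permutation p = 0.000198 and 0.00223, adjusted 0.00714 and 0.0402 over 36 pairs), and r was 0.908 without the 2 rats farthest from the median of Isg15. Only 0.0727% of all tested probes followed Isg15 as closely as Oas1a did. For the remaining genes this share was larger, from 3.22% for Mx2 to 8.2% for Stat2, and it was 10.3% for Mx1. Irf9 with Usp18 reached an r of 0.888 and a rho of 0.810 (exact permutation p = 0.00236 and 0.0218, adjusted 0.0424 and 0.196), with r 0.763 without the 2 rats farthest from the median of Irf9. Mx2 with Irf1 had an r of 0.879 and a rho of 0.929 (exact permutation p = 0.00541 and 0.00223, adjusted 0.0649 and 0.0402), and 0.799 without the 2 rats farthest from the median of Mx2. The 2 Pearson calls among 36 pairs were Isg15 with Oas1a and Irf9 with Usp18, and 11 pairs had an unadjusted p under 0.05. The call of Irf9 with Usp18 uses the brighter Usp18 probe. There control replicate 4 deviated by -3.52, against -0.88 on the dimmer probe, and this pair was not tested on the dimmer probe. The dimmer Usp18 probe followed Oas1a with an r of 0.964 and a rho of 0.952 (exact permutation p = 0.00057 and 0.00114, adjusted 0.00228 and 0.00456 over 4 relations), and r was 0.831 without 2 rats. Each slide holds 4 arrays, too few for a correlation of its own, and subtracting the diet means leaves the permutation p approximate. The pairings also exchanged rats between the diets, although their spread differed. The SD of Isg15 was 0.86 in control and 0.33 in CCH, and that of Oas1a 0.95 and 0.31. Pairings kept within each diet are fewer, so their smallest possible p is larger, and they were not run. Every permutation p and call given here, also for the marker scores, holds only under this exchange.

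**Figure D2:**
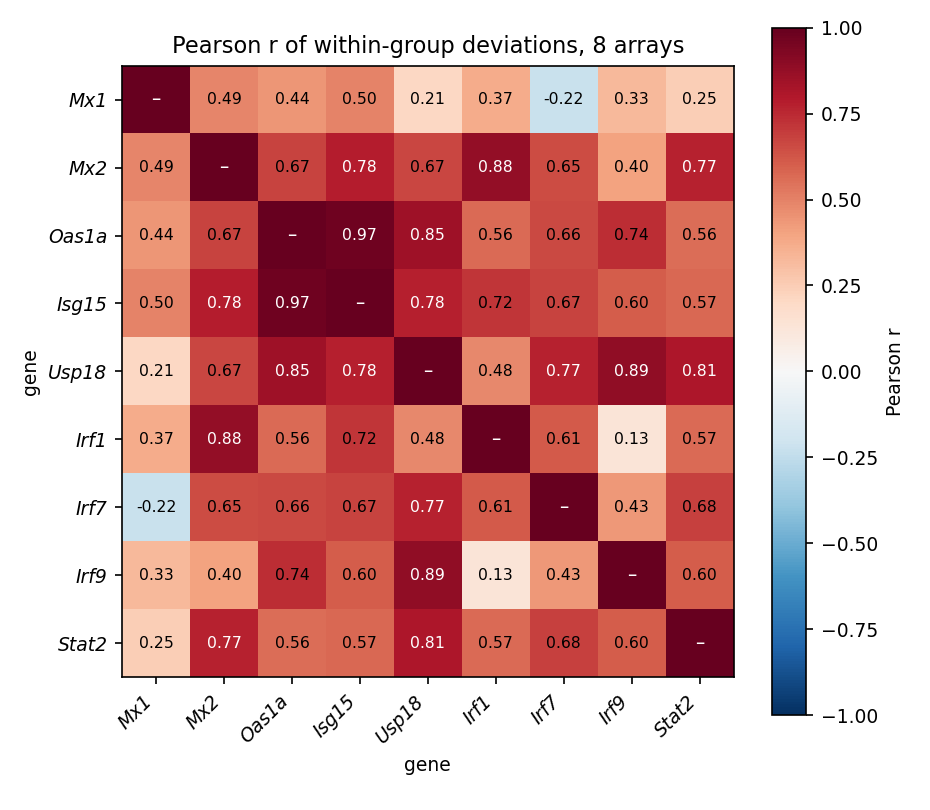
Pearson's r between the within-diet deviations of each pair of the 9 genes over 8 rats, in colour from -1 (blue) to 1 (red) with the value in each cell. The Mx1 row runs from -0.22 to 0.50, the lowest of the other pairs is Irf1 with Irf9 at 0.13, and Isg15 with Oas1a holds the highest, 0.97.

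Rats with high Isg15 and Oas1a also had high levels of meninges and vessel markers, while the choroid plexus score had an r of 0.0439 with Isg15 and 0.0228 with Oas1a (rho 0.0714 and -0.0476, exact permutation p for r = 0.919 and 0.956, and r -0.156 and -0.183 without 2 rats). All 8 listed meninges and fibroblast markers were well above background on every array, and their mean score, centred on 0 over the 8 arrays, ran from -0.78 to 0.45 in CCH and from -1.50 to 1.78 in control. Control replicates 1 and 3 were highest, at 1.78 and 1.25, and control replicates 2 and 4 lowest, at -1.50 and -1.43. The collagen gene Col1a1, for example, was at 2.35, 2.74, 2.28 and 1.31 in CCH replicates 1 to 4, against 3.77, -0.12, 3.28 and -0.06 in control replicates 1 to 4. Of the 10 endothelial and pericyte markers 9 were measured, all well above background on every array, and their score ran from -0.19 to 0.21 in CCH and from -0.41 to 0.34 in control. The within-diet deviations of Isg15 followed the endothelial score with an r of 0.922 and a rho of 0.881 (exact permutation p = 0.00134 and 0.00724, adjusted p for r 0.0198 over 32 relations of 4 genes with 8 lists, computed after the values were seen). With the meninges score r was 0.898 and rho 0.929 (exact permutation p = 0.00186 and 0.00223, adjusted p for r 0.0198). Without the 2 rats farthest from the median of Isg15 these r were 0.832 and 0.796. Oas1a had r of 0.935 and 0.883 with these scores and a rho of 0.857 with each (exact permutation p for r = 0.00114 and 0.00308, adjusted 0.0198 and 0.0246), and 0.815 and 0.763 without 2 rats. By Spearman's rho none of these 4 relations passed after adjustment (exact permutation, adjusted p between 0.0714 and 0.0857). The endothelial and meninges scores themselves rose and fell together. In control replicates 1 to 4 the endothelial score deviated by 0.34, -0.13, 0.19 and -0.40, and the meninges score by 1.76, -1.53, 1.23 and -1.45. These 4 relations are therefore not independent of each other, and which of the scores the genes followed was not tested. With the astrocyte score r was negative, -0.746 for Isg15 and -0.758 for Oas1a, and -0.724 and -0.835 without 2 rats. The exact permutation p for r was 0.0288 and 0.0242, adjusted 0.102 and 0.0966. The neuron score had r of -0.595 and -0.602 with the same genes, and the oligodendrocyte score -0.521 and -0.416. Irf7 had its highest r with the 6 measured blood cell markers, 0.873 with a rho of 0.714 (exact permutation p = 0.00618 and 0.0576, adjusted 0.0395 and 0.22), and 0.746 without 2 rats. The blood cell score ran from -0.25 to 0.21 in CCH and from -0.65 to 0.36 in control, with each marker well above background on at least 6 arrays. It mixes markers of red and white blood cells (Hbb, Alas2, Ptprc, Cd3e, S100a8 and S100a9). The dim S100a8 and S100a9 were at -6.72 and -6.52 in control replicate 4, against -5.49 to -5.03 and -5.04 to -4.55 in the other controls. Hbb was also lowest there among the controls, at 0.51. Irf7 also had r of 0.794 with the meninges score and 0.785 with the endothelial score. The exact permutation p for these r was 0.0208 and 0.0200, adjusted 0.0949 for each. Without 2 rats they were 0.817 and 0.778, above the blood cell value, so Irf7 did not follow the blood cell score alone.

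For Mx1 the values with the meninges and endothelial scores were lower. Its deviations had an r of 0.121 with the meninges score and 0.256 with the endothelial score (rho 0.0714 and 0.190, exact permutation p for r = 0.772 and 0.534). Without the 2 rats farthest from the median of Mx1 both r were about -0.80, so neither value was stable, and no test set its r against that of Isg15. With the microglia score Mx1 had an r of 0.716 and a rho of 0.619 (exact permutation p = 0.0537 and 0.115, adjusted p for r 0.143), and 0.378 without 2 rats. Isg15 and Oas1a were as high with that score, at r 0.736 and 0.727 and rho 0.786 and 0.810 (exact permutation p for r = 0.0348 and 0.0390, adjusted 0.112 and 0.113), and 0.486 and 0.426 without 2 rats. The microglia score of 12 markers, all measured and well above background on every array, ran from -0.17 to -0.02 in CCH and from 0.00 to 0.16 in control, so that the lower diet group was the same as for Mx1. The choroid plexus score of 9 measured markers of 10, each well above background on at least 6 arrays, ran from -3.46 to 1.48 in CCH and from -0.55 to 1.97 in control. With the choroid plexus score Mx1 had an r of -0.635 and a rho of -0.548, and an r of -0.855 without 2 rats. The exact permutation p was 0.0969 for r and 0.171 for rho, and 0.194 for r after adjustment. CCH replicates 2 and 4 held the low values of that score and were the CCH rats highest in Mx1. Without both of them the Mx1 difference was -1.47. Without control replicates 1 and 3 together it was -1.11, while those of Isg15 and Oas1a were then 0.36 and 0.43. The oligodendrocyte score of 6 markers ran from 0.01 to 0.36 in CCH and from -0.31 to -0.08 in control, the astrocyte score of 6 from -0.02 to 0.19 in CCH and from -0.23 to 0.04 in control, and the neuron score from -0.03 to 0.06 in CCH and from -0.13 to 0.12 in control. The part of microglia, meninges, vessels and the other cell types in these levels was not tested, and in whole hippocampus fewer cells of a type and less RNA per cell cannot be told apart.

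**Figure D3:**
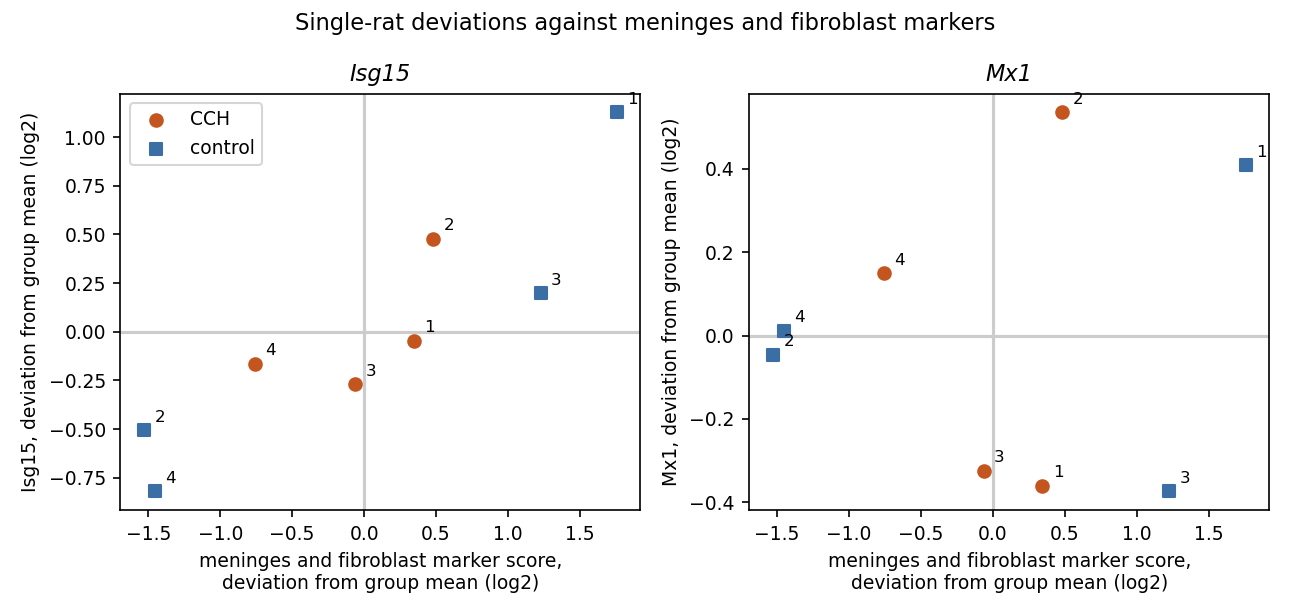
Within-diet deviation of Isg15 (left panel) and Mx1 (right panel) on the y axis, against that of the mean meninges and fibroblast marker score on the x axis, all in log2. Each point is 1 rat with its replicate number, CCH as orange circles and control as blue squares. Isg15 climbs with the marker score (r = 0.898) and Mx1 scatters (r = 0.121).

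Other genes of the interferon system came from a list of 104 genes in 8 roles, of which 74 were on the array and 65 were tested. By limma 0 of the 65 were called over all probes, against 0.174% of all tested probes, and 5 had an unadjusted p under 0.05, a smaller share than the 15.4% of all tested probes. By sign alone 16 were higher and 49 lower in CCH. Their median log2 difference was -0.17, beside 0.03 over all tested probes. Effectors were lower for 22 of 28 (median -0.27), sensors and adaptors for 10 of 12 (median -0.16) and interferon-gamma GTPases and chemokines for 4 of 5 (median -0.28). The ISG15 and ubiquitin-like system was lower for 3 of 4 (median -0.29). Receptors and kinases were split 2 against 2 (median -0.02), transcription factors 3 against 3 (median -0.06), and negative regulators were lower for 4 of 5 (median -0.02). The only ligand tested was Il15, at -0.10 ± 0.16 (SE). Genes of the list move together, so these sign counts are not counts of independent genes. Control replicate 1 was the highest of all rats for Oas1i, Gbp2 and Irgm, for example. The sign counts were not repeated without that rat, and the share of all tested probes lower in CCH was not counted.

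Irf3, the factor that sensors of viral nucleic acid activate, was at 4.36, 4.35, 4.47 and 4.42 in CCH replicates 1 to 4, against 3.90, 4.03, 4.18 and 4.05 in control replicates 1 to 4. It was thus higher in every CCH rat than in any control rat, by a log2 of 0.36 ± 0.09 (SE, limma adjusted p = 0.117). Irf5 was lower in every CCH rat than in any control rat, by -0.22 ± 0.10 (SE, limma adjusted p = 0.322). Of the 65 tested list genes, 2 (Irf3 and Aim2) had all CCH rats above all control rats and 2 had all below. Groups did not overlap in 11.3% of all tested probes, and all CCH arrays lay below in 4.7%. Among the sensors Aim2, the cytosolic DNA sensor of an inflammasome, differed by 0.43 ± 0.16 and the DNA-sensing receptor gene Tlr9 by -0.35 ± 0.14 (SE, limma adjusted p = 0.266 and 0.292). The kinase gene Eif2ak2, known as PKR, differed by -0.41 ± 0.20 on its brightest probe and by -0.56 ± 0.13 on its other (SE, limma adjusted p = 0.378 and 0.107). Trim25, a ubiquitin ligase of the RIG-I pathway, differed by -0.65 ± 0.35, and Dtx3l, a ubiquitin ligase that was dim in both diets, by -0.42 ± 0.54 (SE). The receptor genes Ifnar1 and Ifngr1 were at -0.12 ± 0.14 and 0.16 ± 0.14 (SE). The chemokine gene Ccl5, the GTPase gene Irgm and the feedback regulators Socs3 and Ptpn6 were at -0.42 ± 0.45, -0.20 ± 0.22, -0.17 ± 0.19 and -0.11 ± 0.13 (SE). No gene in this paragraph passed the threshold over all probes.

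**Figure D4:**
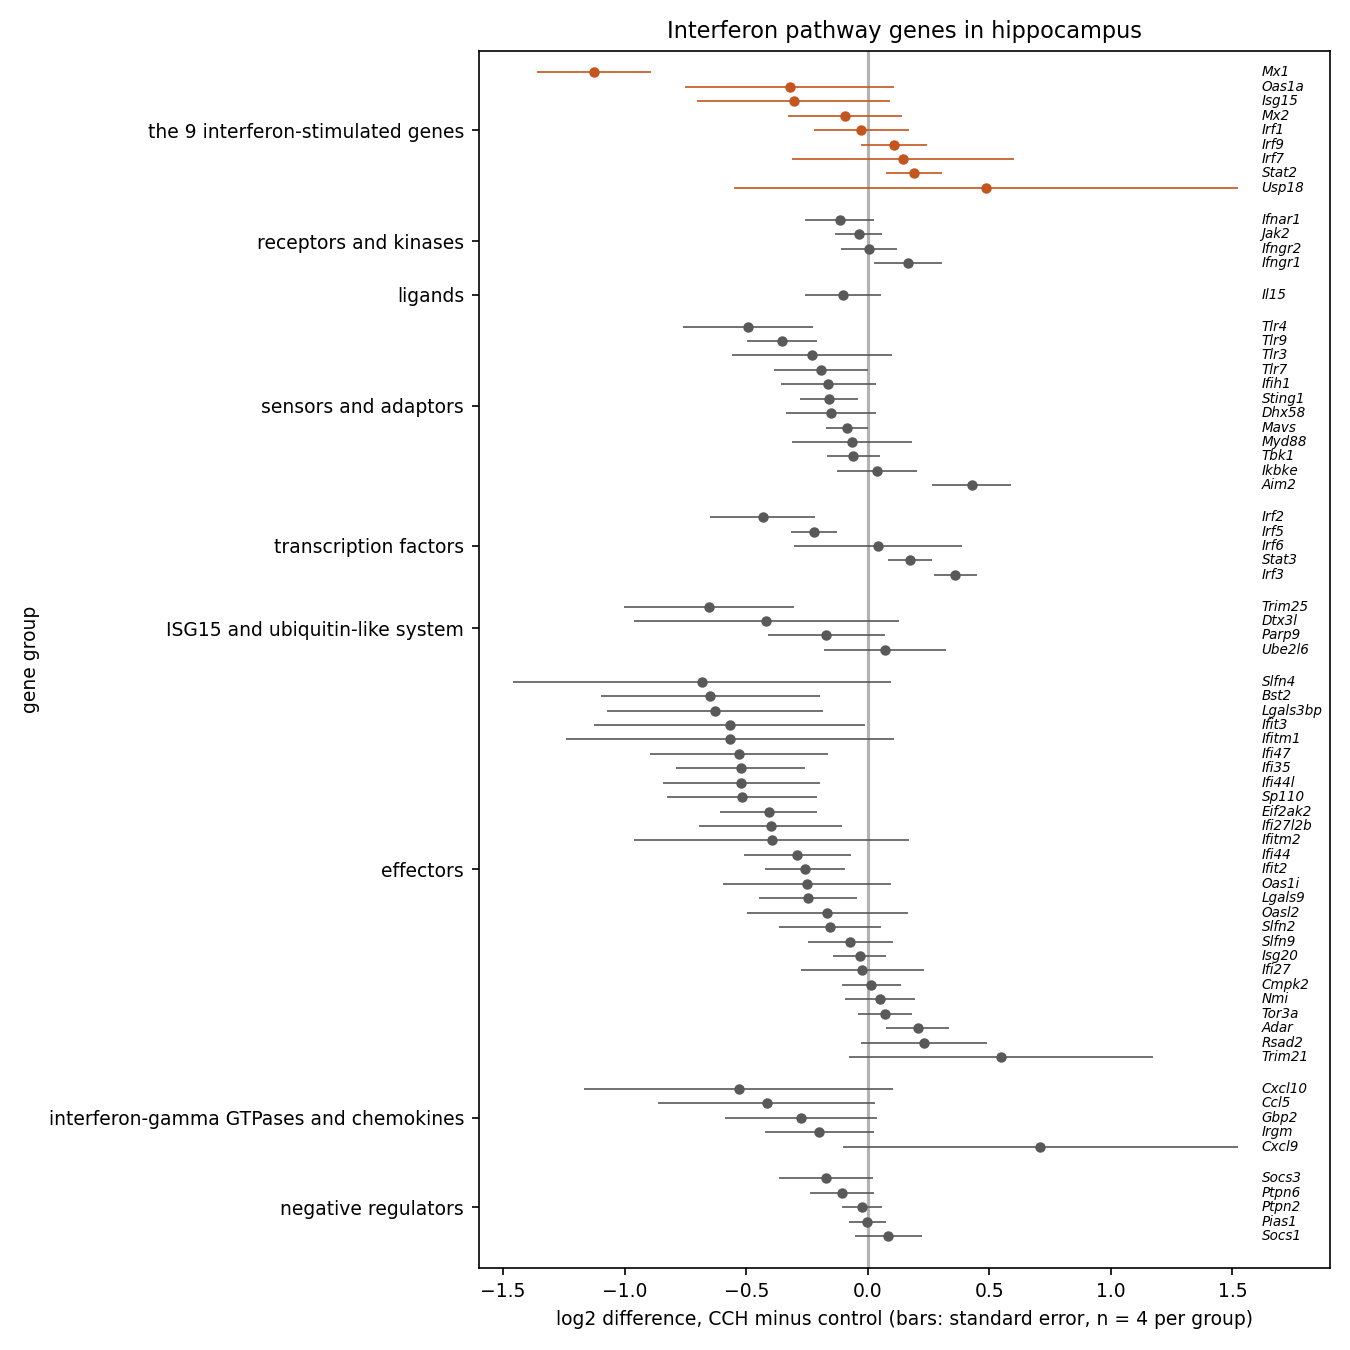
Log2 difference of CCH minus control (x axis) with its standard error (bars, 4 rats per diet) for the 9 genes on their brightest probes (orange, top) and 63 of the 65 tested interferon pathway genes (grey), grouped by role on the y axis with the gene names at the right. Mx1 lies at -1.13, outside the range of -0.68 to 0.71 that the grey points span.

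Within the diets, the wider list followed Isg15 more than Mx1. Among its 65 tested genes, 8 (12.3%) had an r of at least 0.9 with Isg15, against 297 of all tested probes (0.939%), and the median r was 0.62 for the list and -0.16 for all probes. For Mx1 the counts were 0 of 65 against 38 of all probes (0.12%), with medians of 0.18 and 0.03. Close followers of Isg15 in the list were Irgm (r = 0.989), Gbp2 (0.982) and Oas1i (0.975), named after their values were seen. Irgm, an interferon-gamma-induced GTPase gene, was at -1.96, -1.59, -1.92 and -1.99 in CCH replicates 1 to 4, against -1.07, -1.96, -1.54 and -2.11 in control replicates 1 to 4. The control rats, from high to low replicates 1, 3, 2 and 4, had the order seen for Isg15. These r describe 8 rats that share 2 slides, and genes are not independent of each other.

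**Figure D5:**
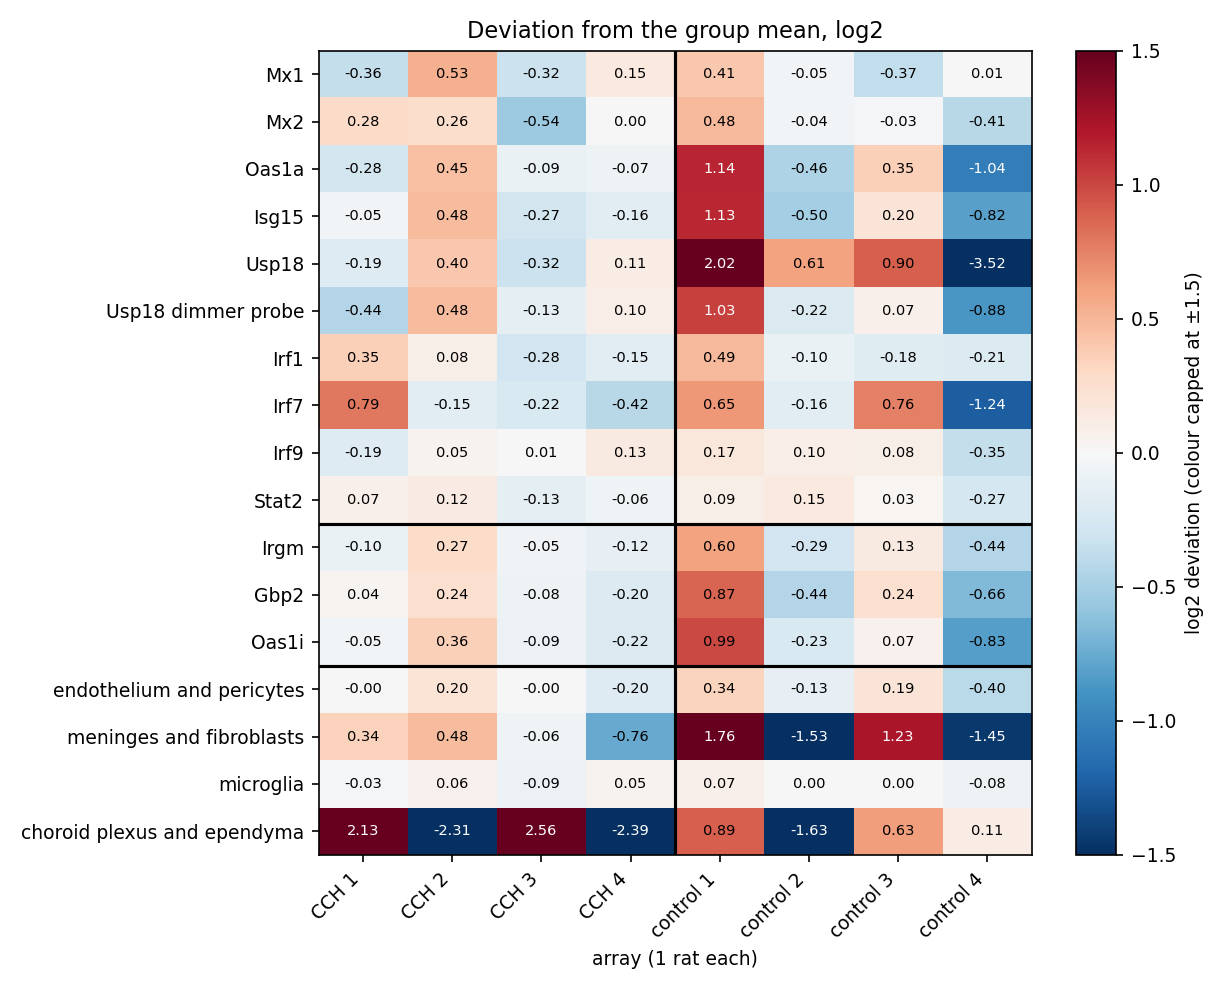
Log2 deviation of each rat (columns, CCH left and control right) from the mean of its diet for the 9 genes with both Usp18 probes (top block), 3 interferon genes that followed Isg15 (middle block) and 4 mean marker scores (bottom block). Red is above the mean and blue below it, with colours capped at 1.5 in either direction. Control replicate 1 is red and control replicate 4 blue in nearly all gene rows, while in the Mx1 row control replicate 4 is near 0 and control replicate 3 is blue.

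The 5 named genes whose within-diet deviations were most like those of Mx1 were Cox15 (r = 0.930), which acts in haem A synthesis, Inka1 (0.918), Spatc1l (0.915), Mcu (0.912), the pore of the mitochondrial calcium uniporter, and Mertk (0.911), a receptor of phagocytic cells. None of the 5 is a gene of the interferon list. Cox15 varied little beside Mx1, at -2.67, -2.40, -2.64 and -2.49 in CCH replicates 1 to 4, against -2.65, -2.66, -2.75 and -2.68 in control replicates 1 to 4. Inka1, Mcu and Mertk also had a smaller SD than Mx1 in each diet. Spatc1l varied more, with an SD of 0.80 in CCH and 0.50 in control, against 0.43 and 0.32 for Mx1.

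Response-element letters were common in the promoters of the wider list. They were found in 23 of 54 tested genes with a promoter in the table (42.6%), against 3.92% of all promoters, and the gamma-activated site in 8 of 54 (14.8%), against 8.87%. The median r with Isg15 was 0.63 for the 23 genes with a response-element match and 0.57 for the 31 without one, with ranges that overlapped, from -0.06 to 0.99 and from -0.50 to 0.95. Irgm was the gene at the top of the first range.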

How the data were processed

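Hippocampal RNA of 8 rats was measured on 1-colour Agilent arrays. Per the file headers and the submitters' processing notes, the authors read the spots with Agilent Feature Extraction 9.5. Its processed signal, as deposited, is an intensity on a linear scale after background subtraction, not scaled across arrays. A value table from the authors holds the same intensity rounded (largest relative difference 0.498%), with column medians of 102, 85.4, 76.9 and 71.8 for CCH and 80.2, 63.3, 69.2 and 66 for control replicates 1 to 4, and adds nothing to it. The log2 of the processed intensity, computed here from the deposited files, was taken relative to the 75th percentile of the 43379 non-control spots on its array. Spots with an outlier mark (55 to 122 per array) were set to missing, and spots of a probe were averaged, giving 41012 probes. RefSeq accessions of the GRCr8 table named 15184 (37.0%); the array grid is of the older build rn4, so no array coordinates are given.

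Probes well above background on at least 4 of 8 arrays, with at least 3 values per group, were fitted by limma 3.58.1 in R 4.3.3 (two-sided moderated test), and p-values of 31618 probes were adjusted by Benjamini-Hochberg with a threshold of 0.05. Counts by gene use the brightest probe. Correlations used exact permutation over 40320 pairings of all 8 rats, not kept within a diet, in Python 3.11.15 with numpy 2.4.6. The code was tested on simulated data. The labels do not say more than that each array is 1 rat, so p-values measure the spread between these samples. The members and lists were chosen with earlier results of these data known. Named genes were the 9 genes, the 2 list genes per role with the smallest p, any called, and the 5 most like Mx1; results of a few single genes are not reported here. Alternatives covered scaling, background correction, detection filter, outlier marks, variance model, array weights, replicate block, single arrays left out and 2 pairs of arrays added after seeing the data. The normexp alternative used the median spot signal, because a mean signal column is not among those used here.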

Additional observations from a re-analysis of the deposited data

Results flagged for a closer look

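Of 60 groups of 4 arrays examined among the named genes, 4 had 1 array far from the other 3 by Dixon's ratio of the gap to the range above its critical value. Chance alone marks about 5% of such groups. Irf1 was marked in the controls (ratio 0.845), where replicate 1 stood at -2.15 and the other 3 between -2.84 and -2.74. Il15 was marked in the controls (0.839) for replicate 4, at -3.89 against -3.36 to -3.26. Inka1 was marked in the controls (0.850) for replicate 1, at -3.06 against -3.21 to -3.19. Eif2ak2 was marked in CCH (0.846) for replicate 3, at -0.26 against -0.68 to -0.62.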

How the results depend on the processing

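The log2 difference of Mx1 kept its sign in all 19 alternatives, from -1.47 to -0.68, and normexp background correction gave the smallest, -0.68. With 1 array left out it ran from -1.30 to -0.99. The median over the 9 genes ran from -0.27 to 0.14 with 1 array left out and changed sign, as did the differences of Isg15 and Oas1a without control replicate 1. The cause was not tested. The count of called probes over all genes, 55, was 189 with normexp, 29 with no detection filter, 209 with detection on all 8 arrays, 215 with a trended and robust variance and 1293 with array weights. With 1 array left out it ran from 0 to 733, the highest without CCH replicate 1 and 0 or 1 without any other. It was 0 when control replicates 1 and 3, or CCH replicates 2 and 4, were left out together. Of the interferon list, 0 genes were called in the reported fit, 1 with quantile normalization, 1 with normexp, 1 with detection on all 8 arrays, 1 with the trended variance and 2 with array weights, and 0 to 1 with an array left out. Irf3 was 1 of the 2 with array weights. With the replicate block 0 probes were called, against 4966 with an unadjusted p under 0.05. Same-numbered rats did not deviate together throughout (r of 0.146, 0.0795, -0.00482 and 0.245 for numbers 1 to 4). The labels state no pairing by number, and these r cannot exclude a weak one. None of the 8 relations of Mx1 with the other genes was called under any of 6 alternatives. A slide block was not run, because each slide holds 1 diet. Dim spots limit Mx1 and Usp18 most.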

Other observations

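The effectors Ifitm1, Ifitm2 and Bst2, outside the naming rule and picked after their values were seen, followed the split of the control rats. Ifitm1, which encodes a membrane protein that hinders virus entry, was at -1.63, -1.91, -2.0 and -2.60 in CCH replicates 1 to 4, against 0.06, -2.86, -0.35 and -2.73 in control replicates 1 to 4. Ifitm2 was at 0.47, 0.09, 0.04 and -0.45 in CCH replicates 1 to 4, against 1.78, -0.76, 1.24 and -0.55 in control replicates 1 to 4. Bst2, the virus-tethering protein tetherin, was at 0.82, 1.57, 1.66 and 0.76 in CCH replicates 1 to 4, against 2.57, 0.75, 2.69 and 1.38 in control replicates 1 to 4. In all 3 genes control replicates 1 and 3 were above every CCH rat, and control replicate 2 was below every CCH rat. The groups therefore overlapped, with limma adjusted p of 0.744, 0.791 and 0.549.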
